A study of Mus musculus with 4 samples.

Results

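The genes examined here are 42 transcripts of G2 phase and mitosis, read from the gene-level counts of mouse embryonic stem cells before and after induction of Cas9 against Klf genes. They were taken as a fixed list of symbols, matched through Ensembl identifiers to GENCODE M21, and all 42 were found among 45706 genes and passed the filter on low counts, which left 18005 genes. They fall into 4 role groups, with 11 genes of cyclins, kinases and the anaphase-promoting complex, 12 of spindle motors and cytokinesis, 13 of kinetochore and centromere, and 6 of chromosome condensation. The rule uses no measured value, although the list was drawn up with earlier results of these data known.

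There were 2 groups of 2 libraries. The 24 h group (replicates A and B) has the genotype label KLF KO and came from the mouse embryonic stem cell line V6.5. Clonal lines with an integrated lentivirus, which holds guide RNAs and a Cas9 that doxycycline turns on, had been given doxycycline for 24 h. The protocol gives guides against either only Klf4 or the trio Klf2, Klf4 and Klf5. The 24 h titles hold both TKO and the words KLF4 KO, so which set each library had is not settled. The 0 h group (replicates A and B) is labelled KLF WT, with no doxycycline, and its titles name WT ESCs as well as the abbreviation TKO. Whether those cells also carried the vector is not settled by the labels. All 4 libraries came from cells on irradiated feeders in medium with 15% serum, 1000 U/ml LIF and the 2i inhibitors (1 µM MEK inhibitor and 3 µM GSK3 inhibitor). The drug, the nuclease, the lost KLF proteins and elapsed time therefore cannot be told apart in this comparison. The labels call the libraries biological replicates, but A and B are not said to mark a shared clone.

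Mitosis is driven by CDK1 bound to B-type cyclins, which is switched on by CDC25 phosphatases and switched off when the anaphase-promoting complex, an E3 ubiquitin ligase, marks the cyclins for destruction. Kinesins build and lengthen the spindle, kinetochores tie chromosomes to it under the watch of the spindle checkpoint, condensins and topoisomerase II compact the chromosomes, and the midzone machinery then cuts the cell apart. Most of these transcripts are made in waves that peak in G2 and M, under promoters with CCAAT boxes, bound by the trimer NF-Y, and a cell cycle homology region (CHR), bound by the DREAM and MuvB complexes. Embryonic stem cells cycle fast, with a short G1, so a large share of them is in S, G2 or M at any moment. In RNA from a whole culture, a different share of cells in G2 and M and a different amount of RNA per cell cannot be told apart.

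The promoters carried this architecture. RefSeq promoters (250 bases before to 50 after the start, GRCm38.p6) were found for 35 of the 42 members. The CHR core, TTTGAA on either strand, was present in 26 of them (74.3%), against 46.9% of 81 other mitosis genes with a promoter and 18.5% of 17492 protein-coding genes. A CCAAT box on either strand was present in 27 (77.1%), against 63.0% of the other mitosis genes and 42.3% of all, and at least 2 boxes in 17 (48.6%), against 35.8% and 14.6%. Both elements occurred together in 23 members (65.7%), against 34.6% and 8.37%. A pair of CCAAT boxes 31 to 33 bases apart stood in 7 members (20.0%), against 1.41%. A KLF-type motif, GGGNGTGG on either strand, was present in 8 members (22.9%), against 29.6% of the other mitosis genes and 21.6% of all. No CHR match overlapped a CCAAT match. Matches are letters in a window, not sites shown to be bound.

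The 150 bases upstream of the start are shown for 6 members (RefSeq, GRCm38.p6; for Cdc20 the stretch ends a few bases earlier, where the first annotated transcript begins), lower case with CCAAT (or ATTGG) and TTTGAA (or TTCAAA) in capitals. Hmmr is the member that passed the test below, and Ccnb2, Top2a and Spc25 had larger positive log2 fold changes than most members. Cdc20 and Plk1 had log2 fold changes below 0 as reported (-0.03 and -0.22). Without 0 h replicate A these were 0.10 and -0.02, so neither stands for genes that were lower.
Hmmr (chr11:40733438-40733587, minus strand): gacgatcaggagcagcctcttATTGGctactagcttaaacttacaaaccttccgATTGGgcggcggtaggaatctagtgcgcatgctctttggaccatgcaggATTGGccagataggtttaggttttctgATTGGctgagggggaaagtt
Ccnb2 (chr9:70421555-70421704, minus strand): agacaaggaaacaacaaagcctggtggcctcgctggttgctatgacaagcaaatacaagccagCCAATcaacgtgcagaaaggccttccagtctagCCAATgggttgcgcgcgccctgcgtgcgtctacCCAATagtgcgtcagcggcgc
Top2a (chr11:99024190-99024339, minus strand): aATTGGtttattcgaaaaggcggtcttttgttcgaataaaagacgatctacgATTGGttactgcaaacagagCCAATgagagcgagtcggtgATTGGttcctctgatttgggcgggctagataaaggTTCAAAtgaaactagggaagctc
Spc25 (chr2:69206214-69206363, minus strand): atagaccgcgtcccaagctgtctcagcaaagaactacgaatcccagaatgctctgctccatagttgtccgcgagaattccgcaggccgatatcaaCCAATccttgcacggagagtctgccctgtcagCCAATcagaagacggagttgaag
Cdc20 (chr4:118437353-118437502, minus strand): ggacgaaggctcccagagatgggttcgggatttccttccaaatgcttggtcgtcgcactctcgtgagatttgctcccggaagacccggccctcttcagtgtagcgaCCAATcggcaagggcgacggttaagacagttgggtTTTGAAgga
Plk1 (chr7:122159285-122159434, plus strand): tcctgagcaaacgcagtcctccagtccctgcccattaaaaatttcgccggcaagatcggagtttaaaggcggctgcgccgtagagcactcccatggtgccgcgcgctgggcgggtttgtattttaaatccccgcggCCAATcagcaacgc
The Hmmr stretch held 4 CCAAT boxes, all on the other strand, and Ccnb2 held 3 in a regular row, at 87, 54 and 21 bases before the start. Hmmr, Ccnb2, Spc25 and Plk1 had their nearest CHR core just after the start, outside the stretches shown. Cdc20 had a further CCAAT box in the bases left off before its start, and Hmmr and Top2a had further boxes upstream of their stretches. The 23 members with both elements had a median log2 fold change of 0.10 at 24 h (from -0.22 to 0.81), and the other 12 one of 0.26 (from -0.01 to 0.46), so the groups overlapped.

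**Figure D1:**
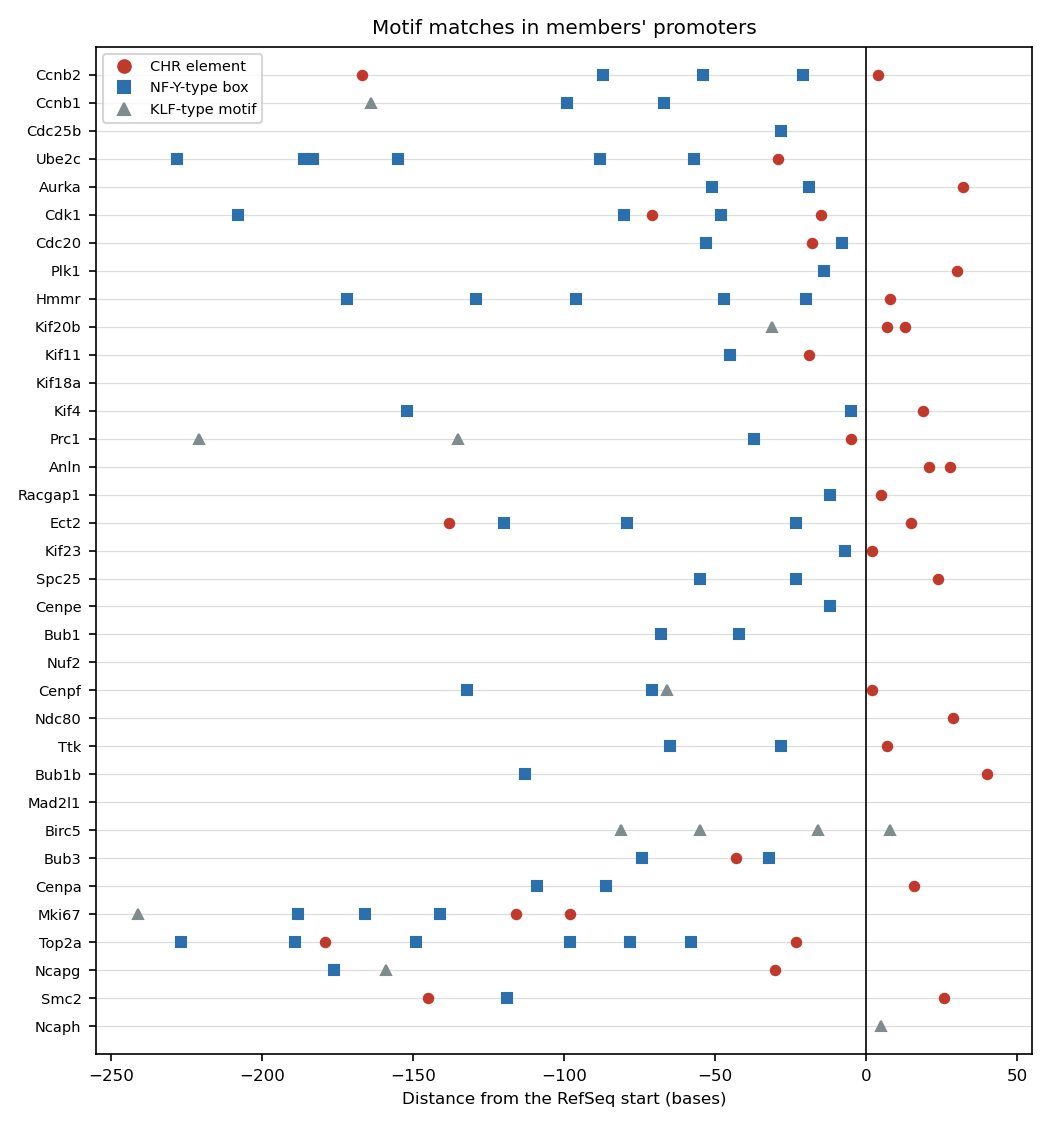
Positions of motif matches in the RefSeq promoters of 35 members, as distance in bases from the start (vertical line). For genes with several starts only the first in genome order is drawn. Circles are CHR cores, squares are NF-Y-type (CCAAT) boxes and triangles are KLF-type motifs. CHR cores gather around the start and NF-Y-type boxes in the bases before it. Over all 38 starts scanned, 43 of 59 boxes lay within 120 bases upstream, with a box shared by several starts of a gene counted once.

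Total counts were 46031578 to 48599693 at 24 h and 48838606 to 52412844 at 0 h. Across all genes, edgeR's quasi-likelihood test (Benjamini-Hochberg adjustment, threshold 0.05) called 748 genes higher and 477 lower at 24 h. Transcripts of the guides' targets Klf2, Klf4 and Klf5 had log2 fold changes of -0.25, -0.29 and -0.72 and did not pass (adjusted p = 0.58, 0.223 and 0.0567 in edgeR), so RNA does not check the knockout, which the labels' protocol checked by western blot for each clone. All 9 embryonic stem cell markers examined were present, at summed CPM (counts per 1e6 of library size, scaled by TMM) of 4252 and 4314 at 24 h and 4770 and 4717 at 0 h. Of 12 feeder fibroblast markers, Dcn and Lum were at or near 0 CPM in every library, and the list summed to 2232 and 2164 CPM at 24 h and 2839 and 2195 CPM at 0 h, most of it Fn1. Of the 10 that could be tested, Pdgfrb was lower in edgeR and 0 were higher. The part of feeder RNA in the results was not tested. Of the embryonic stem cell markers, Pou5f1, Utf1 and Zfp42 were lower in edgeR (33.3%, against 2.65% of all genes) and 0 were higher (against 4.15%). One library was unlike the rest, 0 h replicate A. Its deviation from the gene means correlated with transcript GC content across 17927 genes (r = 0.547, against -0.205 and -0.285 in the 24 h replicates A and B and -0.248 in 0 h replicate B), and genes are not independent.

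The mitotic transcripts were abundant in every library and 1 of the 42 passed the all-gene test. The call in edgeR was higher at 24 h (2.38% of members, against 4.15% of all genes tested) and 0 were called lower (against 2.65%). The one called was Hmmr, a spindle-associated protein first known as a hyaluronan receptor. An unadjusted p under 0.05 was reached by 6 members, all higher (Hmmr, Cenpe, Ccnb2, Spc25, Kif11 and Ccnb1; 14.3%, against 13.2% of all genes), and by 0 lower (against 12.6%). DESeq2's Wald test called 2 higher and 0 lower (against 5.76% and 5.32% of all genes), and limma voom 1 and 0 (against 3.87% and 2.16%). With no filter on low counts edgeR called 3 higher and 0 lower (against 4.61% and 5.10%). The median log2 fold change was 0.12, against -0.01 over all genes, with 32 positive and 10 negative values. For 34 of the 42, the 95% interval of the change lay within 1.5-fold in both directions, for 16 within 1.3-fold and for 4 within 1.2-fold. No interval reached beyond 1.5-fold lower. Together the members held 11230 and 11410 CPM at 24 h, against 9583 and 10790 CPM at 0 h. The 24 h libraries were both above both 0 h libraries, and the gap between the 0 h replicates was larger than that from the higher of them to the 24 h libraries.

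**Figure D2:**
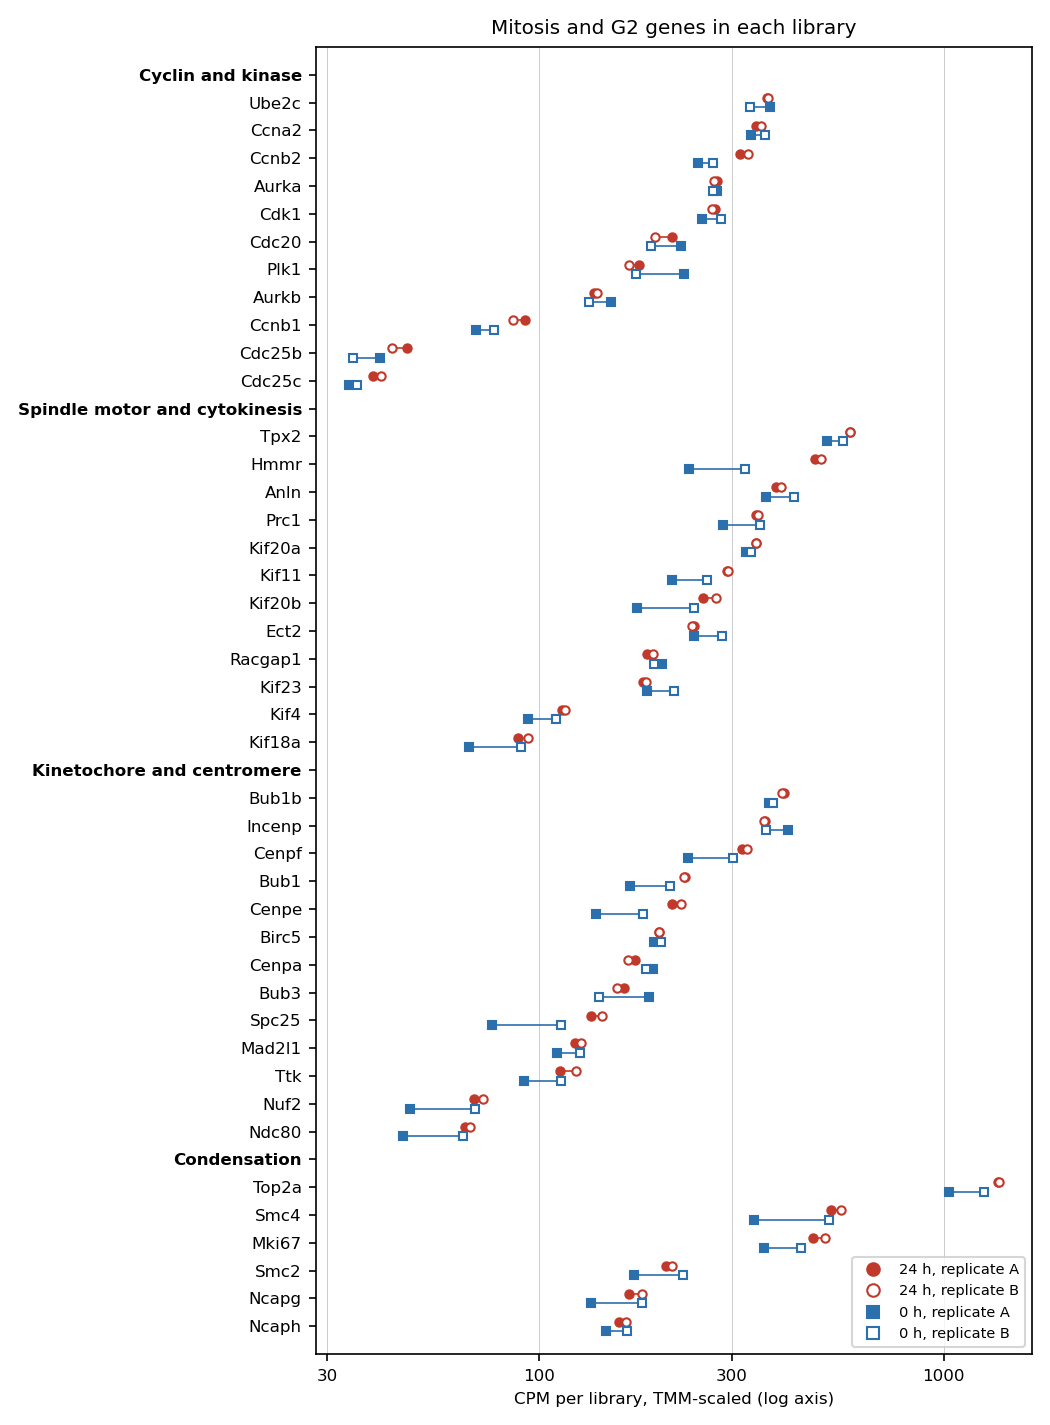
CPM of each member in each library (log axis), by role group, with 24 h as circles above 0 h as squares, replicate A filled and replicate B open, and a line joining the replicates of a group. Hmmr shows the widest gap between the groups, and the 0 h replicates lie farther apart than the 24 h replicates in most members.

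Per length of transcript, the levels spanned a wide range. In TPM (counts divided by union exon length and scaled to a fixed sum per library), Ccnb2 was highest at 648.2 at 24 h and 510.0 at 0 h, followed by Top2a (469.0 and 383.1) and Ube2c (436.4 and 410.2). Cdc25c was lowest, at 25.08 TPM at 24 h and 21.39 TPM at 0 h, and by mean level it still lay above 63.4% of the genes tested. Union exon length counts every annotated exon, so it understates genes with long rare isoforms.

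The cyclin and kinase core had changes near 0 at the median under the reported settings. None of its 11 members passed edgeR, 2 were higher at an unadjusted p under 0.05 (18.2%, against 13.2% of all genes) and its median log2 fold change was 0.01. All 11 intervals lay within 1.5-fold. Without 0 h replicate A the group's median was 0.1, the highest of the 4 role groups. The kinetochore, spindle and condensation groups had medians of 0.06, 0.03 and 0.02 in that fit. Cdk1, the mitotic kinase itself, averaged 270.1 ± 4.06 CPM at 24 h and 267.8 ± 20.3 CPM at 0 h (SD, n = 2 each), a log2 fold change of 0.01 with a 95% interval from -0.23 to 0.25. Ccna2, the cyclin of S phase and G2, averaged 349.0 ± 6.22 and 348.0 ± 19.7 CPM at 24 h and 0 h, with an interval from -0.22 to 0.23. Aurka, the centrosomal kinase Aurora A, had a log2 fold change of 0.01 and an interval from -0.21 to 0.23.

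Both B-type cyclins had positive log2 fold changes that did not pass the test. Ccnb2 had 313.3 and 328.3 CPM at 24 h, against 247.3 and 269.5 CPM at 0 h, and the log2 fold change was 0.31 ± 0.10 (SE; adjusted p = 0.112 in edgeR). Ccnb1 had 92.48 and 86.53 CPM at 24 h, against 70.09 and 77.69 CPM at 0 h, and the log2 fold change was 0.28 ± 0.11 (SE; adjusted p = 0.172 in edgeR). In both genes each 24 h library was above each 0 h library. Ccnb1 has close copies annotated in the genome, of which Ccnb1-ps (99.2% identical over 1287 bases) was assigned 2309 and 2043 counts at 24 h and 1340 and 2085 counts at 0 h, next to 4595 and 4049 and to 3546 and 3776 for Ccnb1. How reads shared by such copies were assigned is not given in the sources used here, so the Ccnb1 values are uncertain.

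Cdc25b and Cdc25c, the phosphatases that release CDK1 from inhibition, had the same direction. Cdc25b was at 47.28 and 43.53 CPM at 24 h, against 40.54 and 34.77 CPM at 0 h (log2 fold change 0.27, adjusted p = 0.229 in edgeR). Cdc25c had a log2 fold change of 0.20 and an interval from -0.07 to 0.46. In both genes the groups did not overlap. The exit machinery showed overlapping groups. Ube2c, the E2 enzyme of the anaphase-promoting complex, had 366.1 and 367.4 CPM at 24 h, against 373.2 and 333.0 CPM at 0 h, and Cdc20, its activator, had a log2 fold change of -0.03, which was above 0 with upper-quartile or library-size scaling. Plk1, the polo kinase, had the most negative value of the 42, a log2 fold change of -0.22, with 176.8 and 167.2 CPM at 24 h against 227.9 and 173.9 CPM at 0 h. The 0 h replicate A was the one high library there. Aurkb, the kinase of the chromosomal passenger complex, had a log2 fold change of -0.04, above 0 with the same 2 scalings.

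Among the spindle motor and cytokinesis genes 1 of 12 was called higher in edgeR (8.33%, against 4.15% of all genes) and 0 lower (against 2.65%). The median log2 fold change was 0.12, with 8 positive and 4 negative values. Hmmr (chromosome 11, 40701395 to 40733422, minus strand) had 481.7 and 497.0 CPM at 24 h, against 235.3 and 323.7 CPM at 0 h, a log2 fold change of 0.81 (SE 0.15, 95% interval 0.45 to 1.17, adjusted p = 0.029 in edgeR). Both 24 h libraries stood well above both 0 h libraries, and the 0 h replicates differed from each other by 0.46 on the log2 scale, with A lower. Leaving out 0 h replicate A gave a log2 fold change of 0.59, and leaving out 0 h replicate B gave 1.05. Without 24 h replicate B it was 0.77 and no longer passed (adjusted p = 0.0689 in edgeR), which left 0 members called in either direction (against 1.81% of all genes higher and 0.899% lower). Without 24 h replicate A the adjusted p in edgeR was 0.0462, and Hmmr was the 1 member called higher, with 0 lower (against 1.97% and 1.05%). Such fits leave a group with 1 library, whose spread is taken to equal that of the remaining pair.

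Kif11, the motor that pushes spindle poles apart, had 291.5 and 293.0 CPM at 24 h, against 213.1 and 259.6 CPM at 0 h (log2 fold change 0.31, adjusted p = 0.166 in edgeR). Kif20b, a motor of late cytokinesis, had 253.8 and 274.3 CPM at 24 h, against 174.7 and 241.6 CPM at 0 h (log2 fold change 0.34, adjusted p = 0.222 in edgeR). In each the groups did not overlap, but 0 h replicate B lay closer to the 24 h libraries than to 0 h replicate A, without which the log2 fold changes were 0.17 and 0.13. Tpx2, the activator of Aurora A on the spindle, had 585.4 and 585.3 CPM at 24 h, against 514.5 and 563.8 CPM at 0 h (log2 fold change 0.12). Kif20a, which carries the passenger complex to the midzone, had 342.9 and 343.4 CPM at 24 h, against 324.2 and 333.4 CPM at 0 h. The chromosome motors Kif18a and Kif4 had log2 fold changes of 0.21 and 0.17, and the midzone bundler Prc1 one of 0.12. None of these 5 passed.

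The 4 negative values of the group were those of Kif23, Ect2, Racgap1 and Anln. Kif23 and Racgap1, the partners of centralspindlin, had log2 fold changes of -0.13 and -0.07, Ect2, the exchange factor that switches on RhoA, -0.13, and Anln, the furrow scaffold anillin, -0.01 (above 0 with upper-quartile or library-size scaling). Ect2 had 241.2 and 239.6 CPM at 24 h, against 241.7 and 283.4 CPM at 0 h, with an interval of the log2 fold change from -0.39 to 0.13. In Ect2, Kif23 and Racgap1 both 24 h libraries were below both 0 h libraries, and the lower 0 h library lay close to them.

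In the kinetochore and centromere group 0 of 13 passed edgeR, 2 were higher at an unadjusted p under 0.05 (15.4%, against 13.2% of all genes) and the median log2 fold change was 0.20. Spc25, a subunit of the NDC80 complex that grips microtubules, had 134.8 and 143.2 CPM at 24 h, against 76.81 and 113.2 CPM at 0 h, a log2 fold change of 0.55 (SE 0.18, 95% interval 0.13 to 0.97, adjusted p = 0.115 in edgeR). DESeq2's Wald test called it higher (adjusted p = 0.0334). Its log2 fold change was 0.29 with 0 h replicate A left out and 0.85 with B left out. Cenpe, the kinesin of the kinetochore, had 212.8 and 224.5 CPM at 24 h, against 138.1 and 180.6 CPM at 0 h, and the log2 fold change was 0.46 ± 0.14 (SE; adjusted p = 0.103 in edgeR). Here too the groups did not overlap, and 0 h replicate A was the lowest library, without which the log2 fold change was 0.27. The other NDC80 subunits, Ndc80 and Nuf2, had log2 fold changes of 0.26 and 0.27, and the corona protein Cenpf 0.26.

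Genes of the spindle checkpoint, which holds anaphase until every kinetochore is attached, lay on both sides of 0. Bub1, the kinase that recruits the others, had 229.5 and 228.6 CPM at 24 h, against 168.1 and 210.9 CPM at 0 h (log2 fold change 0.27, adjusted p = 0.227 in edgeR). Bub1b, which encodes BUBR1, had 402.3 and 399.1 CPM at 24 h, against 370.1 and 378.2 CPM at 0 h (log2 fold change 0.10). The kinase Ttk had a log2 fold change of 0.20, Mad2l1 one of 0.08 and Bub3 one of -0.04 (above 0 with library-size scaling). At the centromere, Incenp, the scaffold of the passenger complex, had 361.8 and 360.8 CPM at 24 h, against 412.5 and 364.9 CPM at 0 h (log2 fold change -0.11). Cenpa, the histone H3 variant that marks centromeres, had a log2 fold change of -0.14, and Birc5, which encodes the passenger subunit survivin, 0.01. No checkpoint or centromere gene passed the test.

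The 6 condensation genes all had positive log2 fold changes, with a median of 0.20, but without 0 h replicate A the median was 0.02 and Smc2 (-0.12), Ncapg (-0.06) and Ncaph (-0.03) were negative. As reported, 0 passed edgeR (against 4.15% of all genes higher and 2.65% lower). An unadjusted p under 0.05 was reached by 0 (against 13.2% higher and 12.6% lower). limma voom also called 0 (against 3.87% and 2.16%), as did DESeq2 (against 5.76% and 5.32%). Mki67, which coats mitotic chromosomes and keeps them apart, had 476.1 and 508.1 CPM at 24 h, against 359.8 and 445.0 CPM at 0 h (log2 fold change 0.29, adjusted p = 0.196 in edgeR). Top2a, the topoisomerase that untangles sister chromatids, had 1361 and 1372 CPM at 24 h, against 1030 and 1255 CPM at 0 h (log2 fold change 0.26, adjusted p = 0.211 in edgeR). Smc4, an ATPase subunit of condensin, had 527.9 and 558.0 CPM at 24 h, against 339.4 and 520.0 CPM at 0 h (log2 fold change 0.34, adjusted p = 0.298 in edgeR). In these 3 genes the groups did not overlap, with 0 h replicate A far below the other libraries. Leaving it out gave log2 fold changes of 0.14 for Mki67, 0.12 for Top2a and 0.06 for Smc4, and leaving out 0 h replicate B gave 0.45, 0.40 and 0.67. The other condensin subunits, Smc2, Ncapg and Ncaph, had log2 fold changes of 0.07, 0.14 and 0.05 and overlapping groups.

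**Figure D3:**
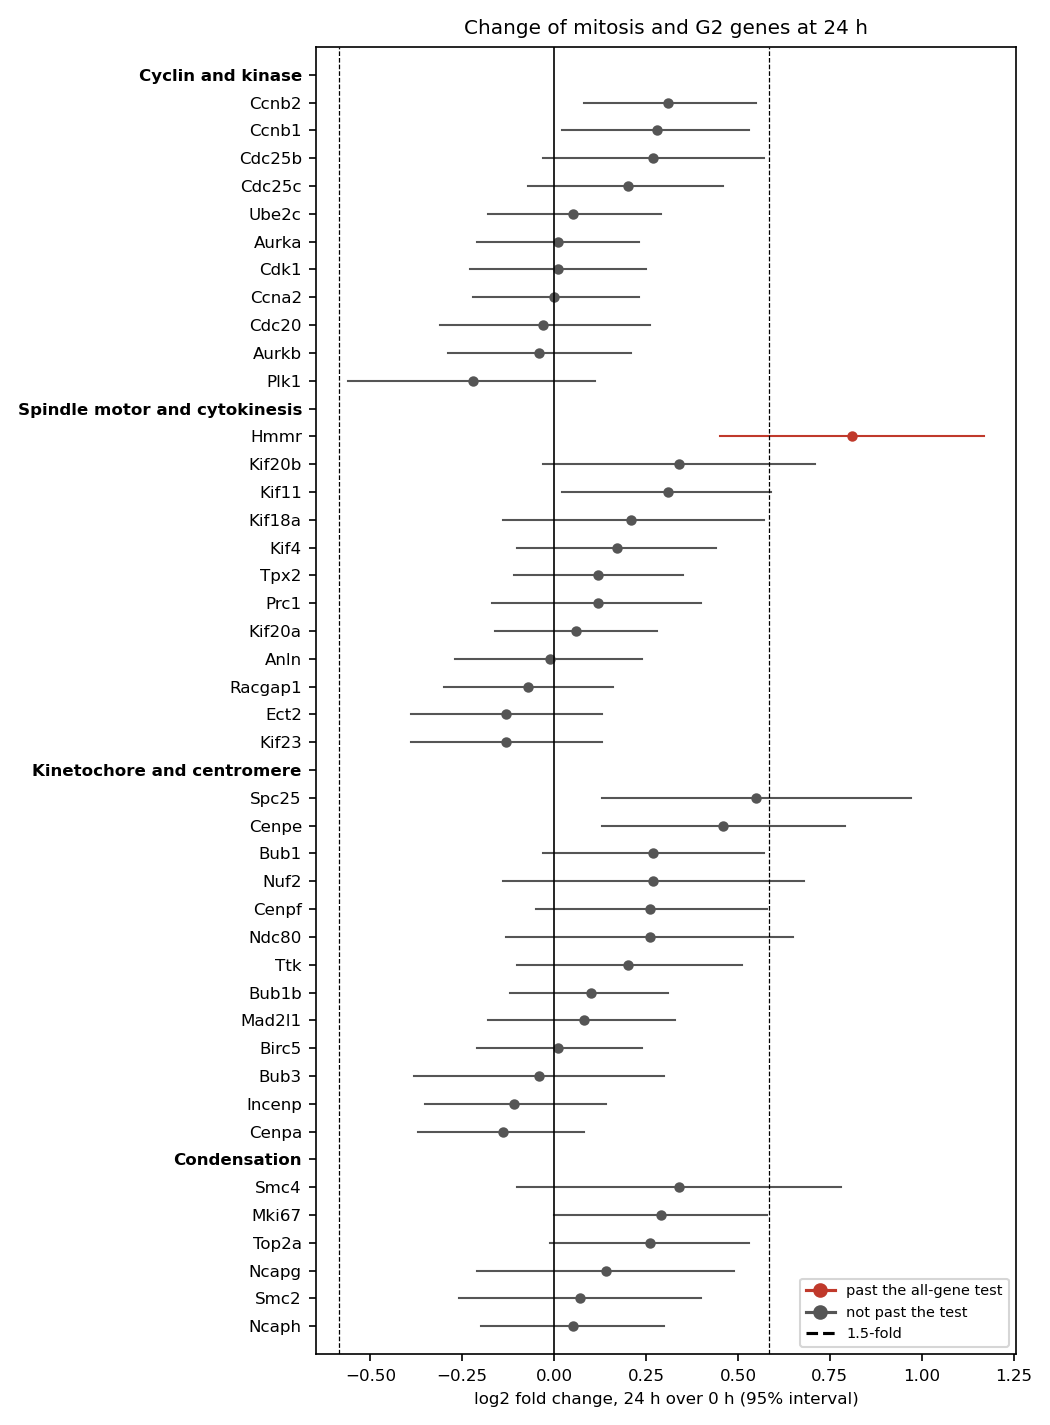
Log2 fold change of each member (24 h over 0 h) with its 95% interval from edgeR, by role group. Dashed lines mark 1.5-fold, and Hmmr (0.81) is the member past the all-gene test. The 11 cyclin and kinase intervals all lie between the dashed lines.

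Over all 42 members, both 24 h libraries were above both 0 h libraries in 19 (45.2%, against 29.3% of all genes) and below both in 5 (11.9%, against 29.5%). The part of 0 h replicate A in these counts was not tested. The 0 h replicate A was the lowest of the 4 libraries in 30 of the 42 members (71.4%, against 32.4% of all genes). Its log2 ratio to 0 h replicate B had a median of -0.20 and ran from -0.62 (Smc4) to 0.41 (Bub3), while that of 24 h replicate A to B ran from -0.13 to 0.14. The members' transcripts have GC contents of 34.84% to 55.98%, and across the 42 the ratio of the 0 h replicates correlated with GC content (r = 0.83, rho = 0.85), a description over genes measured in the same libraries. The log2 fold change at 24 h correlated with GC content as well (r = -0.46, rho = -0.49). The groups with the lowest median GC, condensation (41.8%) and kinetochore (43%), had median log2 fold changes of 0.20, and the cyclin and kinase group (51.4%) had 0.01. In bands of GC content, the median log2 fold change of members and of all genes was 0.24 and 0.13 at most 42%, 0.26 and 0.09 at 42 to 46%, 0.01 and 0.03 at 46 to 50%, 0.01 and -0.05 at 50 to 54%, and -0.03 and -0.21 above 54%. The bands hold 10, 11, 13, 3 and 5 members.

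**Figure D4:**
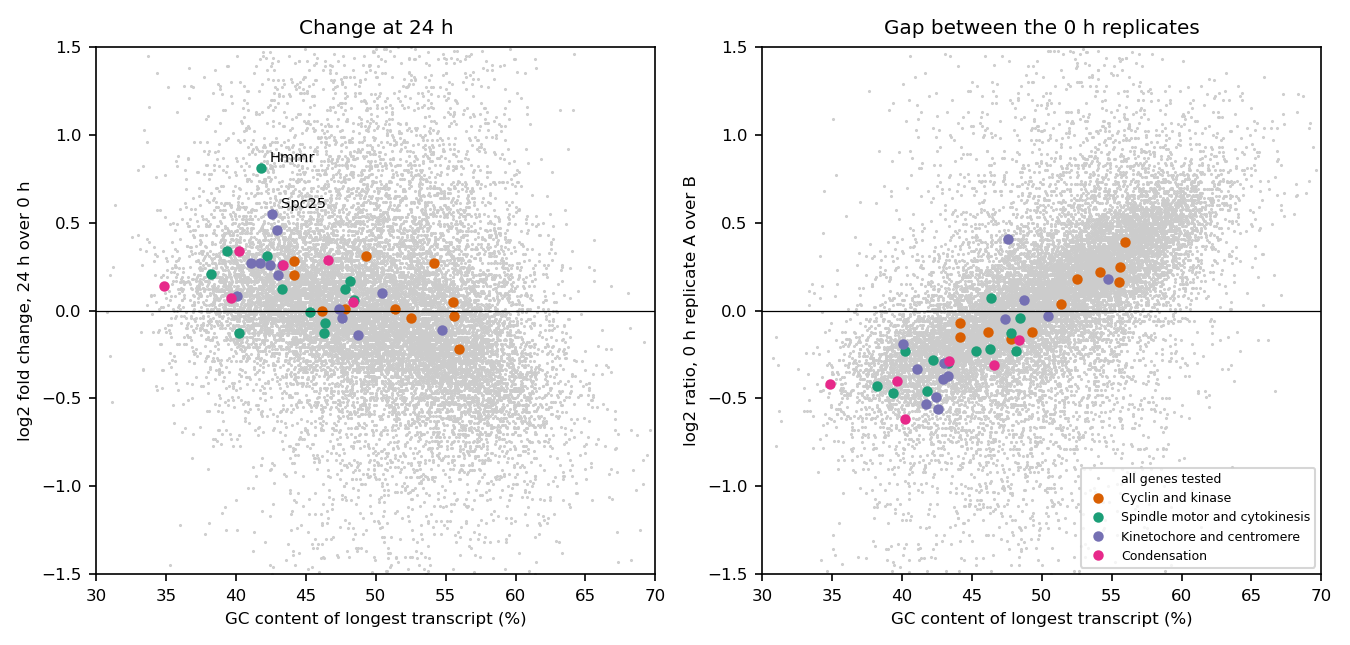
Log2 fold change at 24 h (left) and log2 ratio of 0 h replicate A to B (right) against the GC content of the longest transcript, for all genes tested (grey, values beyond 1.5 not shown) and for members (coloured by role group). Correlations with GC content have the same sign for members and all genes (left r = -0.46 and -0.22, right r = 0.83 and 0.49). On the left the members' median lay above that of all genes in every GC band except 46 to 50%, and Hmmr is the highest member.

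With a trend in GC content and transcript length removed from each library, edgeR called 9 members higher (21.4%, against 12.6% of all genes) and 2 lower (4.76%, against 11.2%). Those higher were Hmmr (log2 fold change 0.70), Spc25 (0.47), Cdc25b (0.36), Cenpe (0.33), Ccnb2 (0.31), Kif20b (0.22), Kif11 (0.19), Ube2c (0.18) and Top2a (0.15). Those lower were Ect2 (-0.25) and Kif23 (-0.18). The median over the members was 0.09. By role group it was 0.11 for cyclins and kinases, 0.11 for the kinetochore, 0.09 for condensation and 0.06 for spindle motors and cytokinesis. The correlation of the members' log2 fold change with GC content was then -0.11, which the removal itself largely sets. Removing the trend also takes out any difference between 24 h and 0 h that follows GC content or length. Without 0 h replicate A, edgeR called 13 of the 42 members higher (against 16.5% of all genes) and 4 lower (9.52%, against 15.8%), with a median of 0.05, and these included all 11 genes just named, with the same sign. The others were Bub1, Bub3, Ccnb1 and Mki67, which were higher, and Anln and Smc2, which were lower. The fit without 0 h replicate A and the fit with the trend removed share the remaining libraries. Their shared calls are therefore not separate evidence. Without 0 h replicate B, 27 members were called higher (64.3%, against 23.2% of all genes) and 7 lower (16.7%, against 27.0%). The counts of calls in these fits rest on the spread of the 24 h replicates, since a single 0 h library remains in each.

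**Figure D5:**
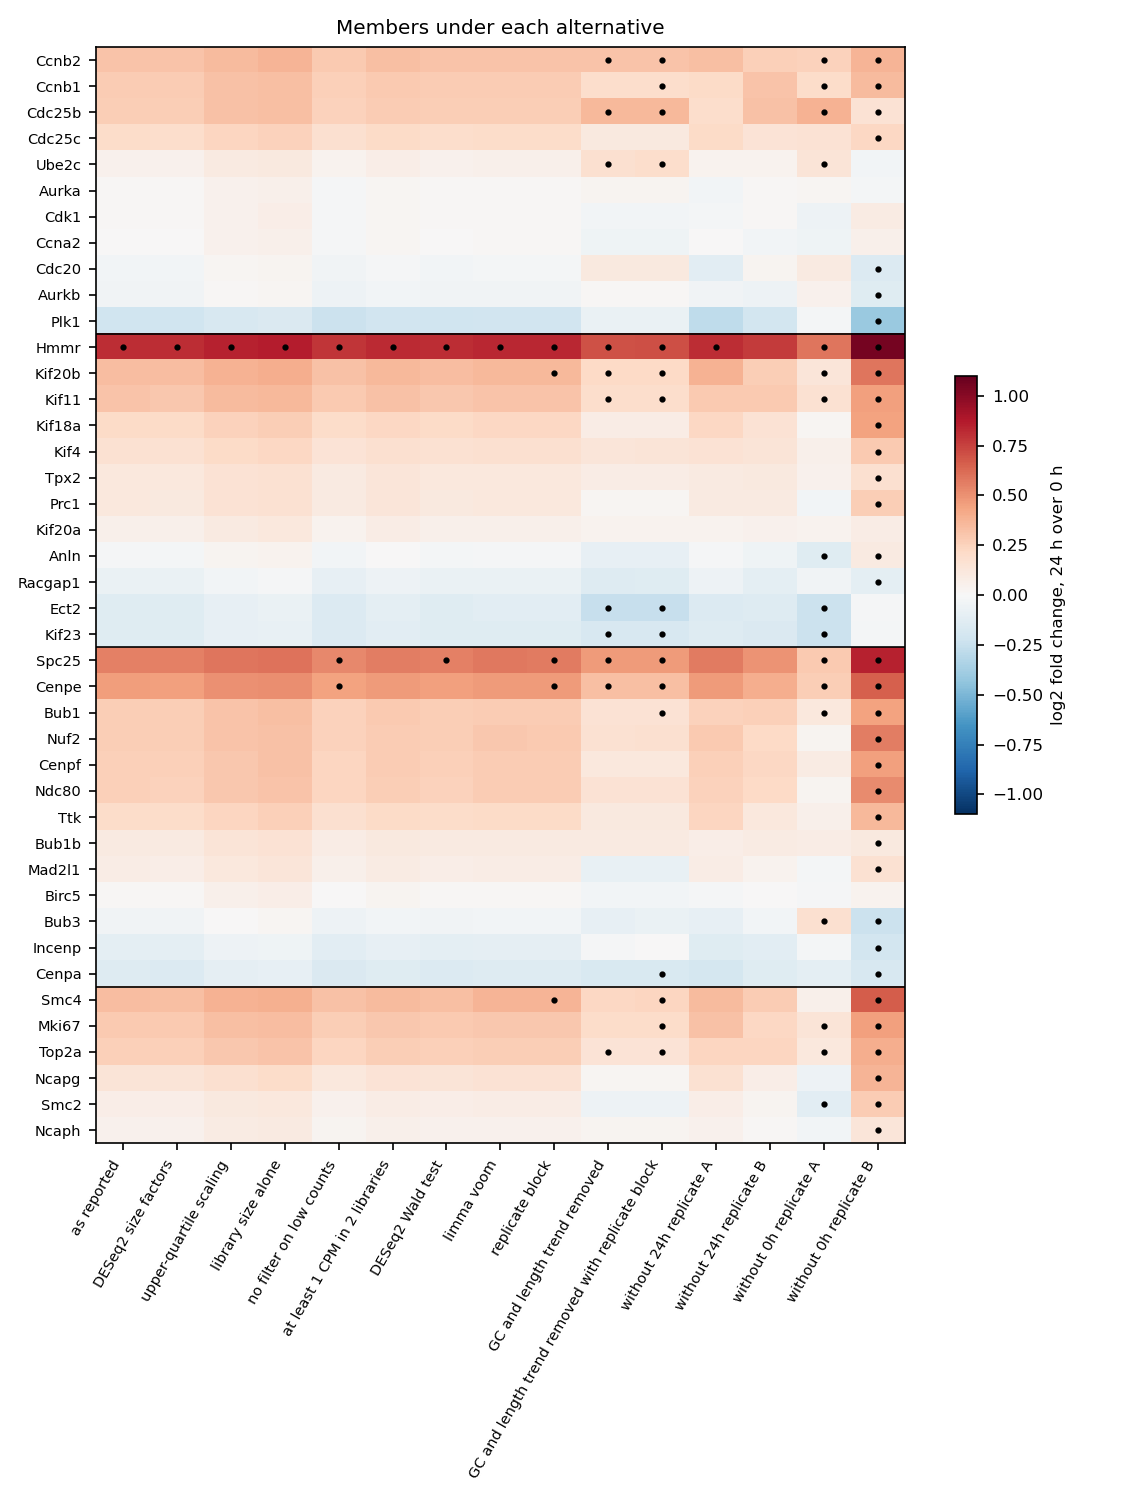
Log2 fold change of each member (rows, by role group) under the reported settings and each alternative (columns), from blue (negative) to red (positive), with a dot where the adjusted p was under 0.05. Hmmr is positive in all columns and dotted in all but 1 of them, while leaving out 0 h replicate B dots most rows.

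Ratios between genes whose products work as partners were also set side by side. Over 18 pairs picked for shared complexes or steps, with results of these data known, the ratio of TPM was higher in both 24 h libraries than in both 0 h libraries in 6, lower in 2 and overlapping in 10. Nuf2 to Ndc80, which wind around each other in 1 complex, had a ratio of 1.08 and 1.11 at 24 h, against 1.06 and 1.09 at 0 h, while Spc25 to Ndc80 had one of 4.17 and 4.32 at 24 h, against 3.38 and 3.54 at 0 h. Hmmr to Tpx2 was 0.709 and 0.731 at 24 h, against 0.394 and 0.494 at 0 h. Smc4 to Smc2 was 2.69 and 2.76 at 24 h, against 2.07 and 2.41 at 0 h. Cdk1 to Ccna2 stood at 0.656 and 0.626 at 24 h, against 0.628 and 0.645 at 0 h, with overlapping groups. The 2 lower pairs were Incenp to Aurkb, at 1.80 and 1.77 at 24 h against 1.87 and 1.87 at 0 h, and Plk1 to Aurka, at 0.738 and 0.711 against 0.952 and 0.745. These ratios are descriptions, with no test, and the share of other gene pairs that separate in this way was not computed.

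Of a wider list of 95 other mitosis genes, edgeR called 1 higher and 1 lower (1.05% each, against 4.15% and 2.65% of all genes), and their median log2 fold change was 0.02. Ckap2, a spindle and microtubule protein, had 242.5 and 254.0 CPM at 24 h, against 128.1 and 157.8 CPM at 0 h, and the log2 fold change was 0.80 ± 0.13 (SE; adjusted p = 0.0169 in edgeR). Bora, the partner with which Aurora A activates PLK1, had 63.16 and 66.87 CPM at 24 h, against 88.52 and 101.2 CPM at 0 h, and the log2 fold change was -0.54 ± 0.11 (SE; adjusted p = 0.0374 in edgeR). In both genes the groups were well apart. Neither the call of Ckap2 nor that of Bora held with 24 h replicate A or B left out in turn. Those fits keep a single 24 h library, and fewer genes were called in them over all genes as well.

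Of the 42 members, 11 share exon bases with a gene on the other strand (Ccna2, Cdc20, Cdc25b, Cdc25c, Kif18a, Kif20a, Kif4, Ncapg, Plk1, Prc1 and Ube2c) and Top2a with a small RNA on its own strand. The strand setting of the counting is not given in the sources used here, so their counts are uncertain to that extent. Hmmr, Spc25, Cenpe and Ccnb2 share none.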

How the data were processed

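Messenger RNA was sequenced in single-end mode from a stranded kit, per the labels' protocols. The authors' table gives whole-number counts by Ensembl identifier, before any normalization. TopHat2, HTSeq, DESeq and mm10 appear in the submitters' processing notes, with neither version nor role. The annotation release, and whether counting used strand, were not stated.

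GENCODE M21 (GRCm38, also called mm10) supplied symbols, spans, lengths and GC content. It lacked 563 identifiers (0.107% of counts). Genes were kept with filterByExpr (minimum count 10, minimum total 15), scaled by TMM and compared with edgeR 4.0.16 (quasi-likelihood, legacy=TRUE, 2-sided) in R 4.3.3, adjusted over 18005 genes at 0.05. Intervals are 95% from the quasi-likelihood SE. With 2 libraries per group, p-values measure the spread between these samples, pooled over genes. The test was checked on simulated data. A count of 0 allows up to 0.0572 to 0.0652 CPM (3 counts), counting error only.

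Members and lists were chosen with earlier results of these data known. Values per library are given for members past the test and, in each role group, for the 3 lowest p and the 2 highest levels; a few more were added after their values were seen. Of the wider list, those past the test are named. Alternatives were DESeq2 1.42.0, limma 3.58.1 voom, other scalings and filters, a replicate block, a GC and length trend (mgcv 1.9.3) removed, and each library left out. Close copies were transcripts of other genes at least 95% identical over 200 bases.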

Additional observations from a re-analysis of the deposited data

How the results depend on the processing

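Hmmr was higher, and past the threshold, under the reported settings and under every alternative run except the fit without 24 h replicate B (log2 fold change 0.59 to 1.05, adjusted p up to 0.0689 in edgeR, over all of them). The counts of calls moved with the setting. Over all genes the count was 2589 with no filter on low counts, 1994 in DESeq2, 3253 with the replicate block, 4280 with the GC and length trend removed and 5922 with both, against 1225 as reported. Members called higher numbered 3, 2, 5, 9 and 13 in the same order, and members called lower 0, 0, 0, 2 and 3 (with the block, against 9.21% and 8.86% of all genes, and with both, 17.0% and 15.9%). Of the 95 other mitosis genes, those called higher numbered 5, 4, 9, 13 and 19 (against 4.61%, 5.76%, 9.21%, 12.6% and 17.0% of all genes). Those called lower numbered 4, 3, 4, 6 and 14 (against 5.10%, 5.32%, 8.86%, 11.2% and 15.9%). With library size alone 3 of the 95 were higher and 0 lower (against 5.34% and 2.39% of all genes). With upper-quartile scaling 0 were lower (against 2.51%). With 1 library left out at a time, the ranges were 506 to 9416 for all genes, 0 to 27 and 0 to 7 for members higher and lower, 0.05 to 0.20 for the members' median log2 fold change, and 0 to 43 and 0 to 28 for the other mitosis genes. For the counts the low ends came without a 24 h library and the high ends without 0 h replicate B, when the spread is read from the 24 h replicates alone (SD of log2 differences 0.19 between the 24 h replicates and 0.327 between the 0 h replicates). The median was lowest without 0 h replicate A. Ube2c, at 0.05 as reported, had a log2 fold change of -0.03 when 0 h replicate B was left out and 0.14 when A was. It is 1 of 14 members whose sign differed between those fits, with Anln, Aurka, Aurkb, Birc5, Bub3, Ccna2, Cdc20, Cdk1, Mad2l1, Ncapg, Ncaph, Prc1 and Smc2, and Bub3 was called in both (0.18 without A and -0.24 without B). For 35 of the 42, one of these fits turned the sign or moved the value by over 1.5 times. Anln, Aurkb and Cdc20 turned positive with upper-quartile scaling, and these and Bub3 with library size alone. No label says that A and B pair the samples, and same-lettered libraries deviated together weakly (r = 0.137 across genes), so the replicate block stands here only, where it called Cenpe, Hmmr, Kif20b, Smc4 and Spc25 higher. Other causes of these shifts were not tested.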

Other observations

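Within the wider list of mitosis genes, most sublists held no gene past the threshold. The 36 other kinetochore and centromere genes had a median log2 fold change of 0.16, with 27 positive values, and at an unadjusted p under 0.05 in edgeR 6 were higher and 1 lower (16.7% and 2.78%, against 13.2% and 12.6% of all genes). The 12 regulators of mitotic transcription, among them Foxm1, Mybl2 and the subunits of NF-Y, had a median of -0.10, with 9 negative values. Their median GC content was 50%, against 45.3% in the kinetochore sublist, and the median log2 ratio of 0 h replicate A to B was 0.11, against -0.21. The difference between the sublists, and the part of GC content in it, was not tested. Of these, Nfya, the subunit of NF-Y that binds the CCAAT letters, had 79.28 and 76.87 CPM at 24 h, against 108.5 and 96.35 CPM at 0 h, and did not pass the threshold (adjusted p = 0.0807 in edgeR). Mastl, the kinase that shields CDK1 substrates from dephosphorylation, had 84.83 and 86.68 CPM at 24 h, against 58.47 and 67.07 CPM at 0 h (adjusted p = 0.0623 in edgeR). Nfya and Mastl were picked after their values were seen.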
